A study of Arabidopsis thaliana with 8 samples.

Results

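Histone H3 trimethylated at lysine 4 (H3K4me3) was compared over genes between leaves and a suspension cell culture of Arabidopsis thaliana Col-0. The members were the intervals that the deposited tables class as protein-coding genes, 27213 of 109972 counted intervals. Of these, 20473 passed a read filter and were measured, and 6740 did not. Chromatin had been immunoprecipitated with antibodies against H3, H3K4me3, H3K27me3 and H3K9me2 and sequenced (ChIP-seq), 8 libraries in total, a single one per antibody and tissue. The leaves were taken from wild-type Col-0 raised on MS agar plates, with no age given and with fixation not stated. The culture was a Col-0 cell line kept in Gamborg's B5 medium with sucrose and 1.1 mg/l of the synthetic auxin 2,4-D, on a shaker in constant light, with a transfer to fresh medium every 7 d. Its cells were fixed with 1% paraformaldehyde for 15 min. Neither sample carried a transgene or mutation according to the labels, and how many plants or flasks went into a library was not given.

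H3K4me3 is laid down by SET-domain methyltransferases of the COMPASS type over the first nucleosomes behind the start of genes that RNA polymerase II transcribes. In plants it marks genes in use across many tissues, and its level follows transcription loosely, not in proportion. An antibody against all H3 reports how many nucleosomes, and how many copies of the DNA, were recovered at a place, so the mark is commonly read against it.

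Each gene was described by the log2 change from leaf to culture of its H3K4me3 reads per 1000000 nuclear reads (RPM) and by the same change after division by H3 ("over H3"). A gene rose or fell where both changes were at least 2-fold in the same direction and both 95% counting intervals left out 0. With 1 library a side these intervals, given in brackets, cover counting error only, and no test between leaf and culture was possible. Levels are given as RPM in leaf and then in the culture, H3 levels included, and paired changes are log2 values, first in RPM and then over H3. In a bulk sample, fewer cells with the mark and less mark per cell cannot be told apart. The nuclear reads numbered 2075647 in the leaf H3K4me3 library and 3476684 in that of the culture, and 1449274 and 3116646 in the H3 libraries. A measured gene held a median of 44 leaf and 70 culture H3K4me3 reads, and 24 and 44 H3 reads.

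The identity of the 2 samples was checked against short marker lists. The 5 mesophyll and chloroplast markers summed to 386 H3K4me3 RPM in leaf and 178 in the culture, with H3 at 38.6 and 59.4, and 2 of the 3 measured ones fell. The 5 markers of dividing cells went the other way, from 42.4 to 135, with H3 at 44.2 and 63.5, and 2 of 4 measured ones rose. Phloem markers (109 to 49.2, 2 of 5 fell) and epidermis markers (203 to 106, 2 of 5 fell) were lower in the culture. Guard cell markers (74.7 to 78.5) and xylem markers (81.4 to 84.3) had like sums on both sides, with 1 of 5 fallen in each. Trichome (58.3 to 35.4, 0 of 2 called) and root meristem markers (198 to 127, 1 of 4 fell) had lower sums, and root hair markers (53.0 to 49.8, 1 of 4 rose and 1 fell) a like one. Seed markers went from 73.2 to 32.8, with 2 of 4 fallen, and pollen markers from 17.3 to 19.8 with 0 of 2 called. WER, a root epidermis marker, was the only listed gene at 0 reads, in leaf. What share of the gene changes below comes from the different cell types of the samples was not tested.

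**Figure D1:**
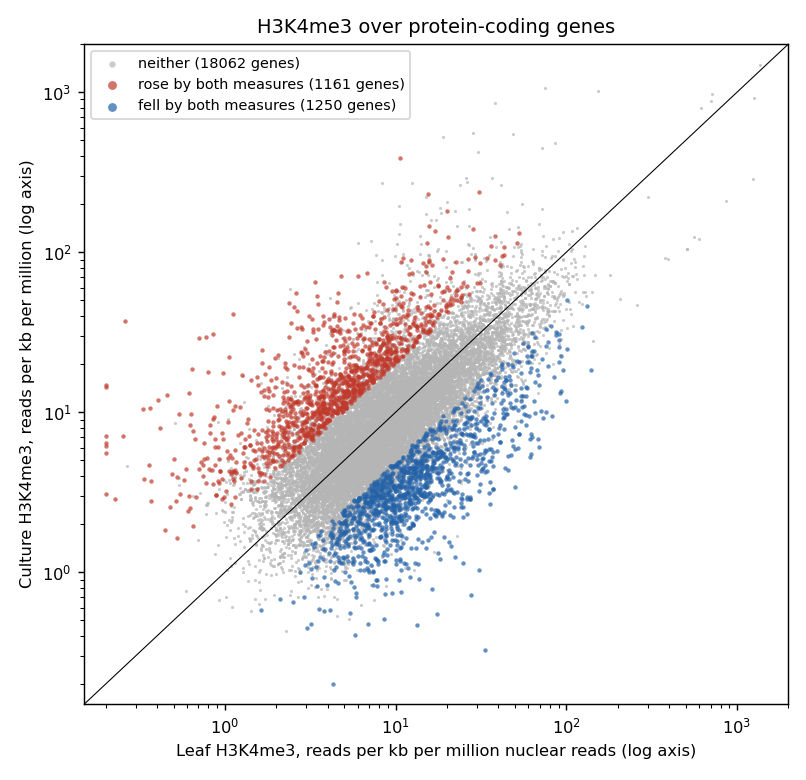
H3K4me3 of each measured protein-coding gene in leaf (x axis) and culture (y axis), in RPM per kb on log axes, coloured by whether the gene rose, fell or was called neither way by both measures. Values under 0.2 are drawn at 0.2. Most of the 20473 genes lie along the diagonal, with 1161 risen genes above it and 1250 fallen genes below it.

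Levels were scaled to each library's total, and the labels name no spike-in, so they compare genes within a library and not the total amount of the mark. The median gene had 8.33 RPM per kb in leaf and 7.74 in the culture, and the tenth to ninetieth percentiles ran from 3.28 to 25.5 and from 2.85 to 25.2. Protein-coding genes took 66.1% of the leaf and 65.6% of the culture H3K4me3 reads. The rank correlation of the level per kb between the samples was 0.66 across 20473 genes, which are not independent replicates and share each sample's library.

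By both measures 1161 genes rose, a background share of 5.67%, and 1250 fell, a background share of 6.11%. By RPM alone, 2114 rose (10.3%) and 3041 fell (14.9%), and over H3 alone 2606 rose (12.7%) and 1751 fell (8.55%). The balance of a single measure depended on the centre: the median gene stood at -0.14 in RPM and at 0.11 over H3. Centred on that gene, the RPM counts became 2610 risen and 2407 fallen, so that the risen share of the calls went from 41.0% to 52.0%. Over H3 they became 2106 and 2122, from 59.8% to 49.8%. The calls by both measures became 1234 risen and 1286 fallen, from 48.2% to 49.0%, and 2192 of the 2411 calls were kept. The measures gave opposite calls for 37 genes that were higher in RPM and lower over H3, and for 6 with the reverse.

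H3 itself differed between the samples in blocks along the chromosomes, and the RPM change moved with it. Over 216 windows of 0.5 Mb with at least 20 measured genes, the median H3 change ran from -1.66 to 2.08 and that of H3K4me3 in RPM from -1.83 to 1.44. Their correlation over windows was 0.94, given as a description, since neighbouring windows and all windows of a sample share libraries. Over H3, the window medians kept to a narrower range, from -0.44 to 1.04, with a correlation of -0.37 with the H3 change, which shares the H3 libraries with it. Chromosome 2 was lowest, with a median H3 change of -0.58 and 22.1% of its genes fallen in RPM, against -0.07 and 9.47% on chromosome 3. By both measures the fallen share was 7.68% on chromosome 2 and 5.19% on chromosome 3. All 20 windows of chromosome 2 to the right of 10 Mb had a lower H3 median in the culture, from -0.81 to -0.32.

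**Figure D2:**
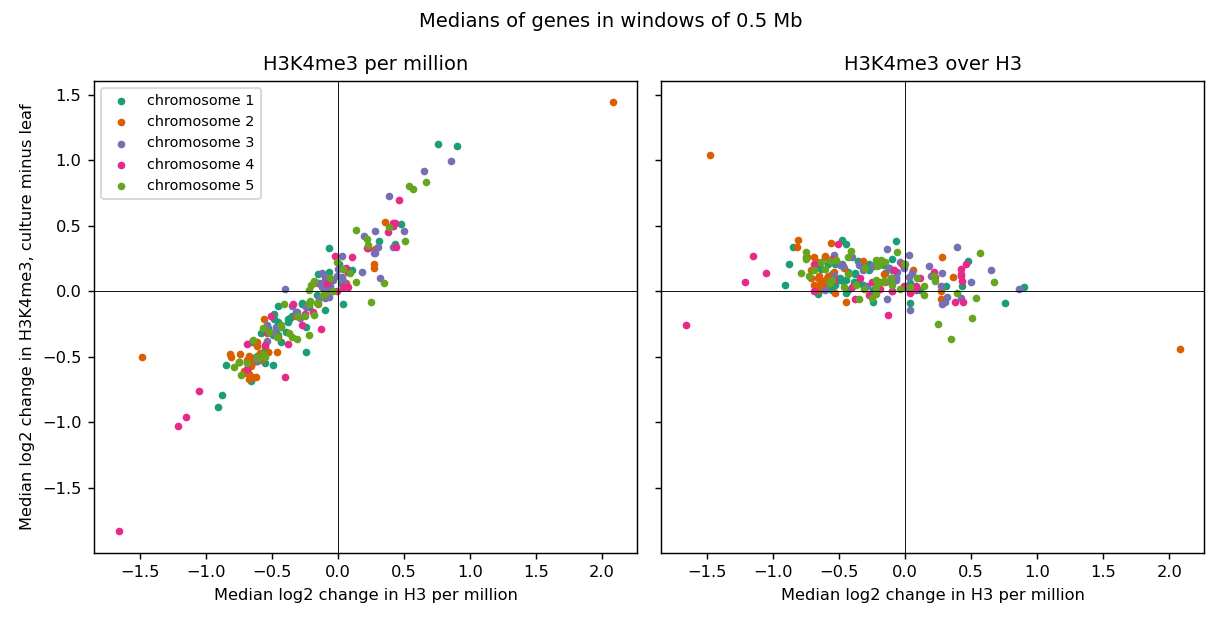
Median log2 change of H3K4me3 against that of H3 in 216 windows of 0.5 Mb, coloured by chromosome, with H3K4me3 in RPM on the left and over H3 on the right. The left panel follows the H3 change over its whole range from -1.66 to 2.08 (r = 0.94), and the right panel stays between -0.44 and 1.04.

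The extreme of this pattern was a set of short stretches that were high in the culture in every library. H3 was at least 8-fold higher in the culture at 67 measured genes, a threshold chosen after the values were seen, and 59 of them lay in 13 stretches of at least 2 neighbouring measured genes. Summed over each stretch, the culture exceeded leaf by 9.71- to 25.8-fold in H3, 3.09- to 20.1-fold in H3K4me3, 4.68- to 19.1-fold in H3K27me3 and 6.96- to 71.0-fold in H3K9me2. Of the 67 genes, 66 were called higher in H3K4me3 in RPM, but 1 rose and 29 were called lower over H3. The genes were picked on the same H3 libraries that divide the mark, so the choice itself favours low values over H3. No DNA input library was among the 8, so more copies of the DNA and more H3 on each copy cannot be told apart.

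The examples named from these stretches were likewise picked with their values in view. At chr5:17390433-17401949 (TAIR10) lie the cytosolic malate dehydrogenase gene c-NAD-MDH2 and the phosphate transporter genes PHT1;6 and PHT1;1. PHT1;1, which takes up phosphate from the soil in roots, had 41.0 H3K4me3 RPM in leaf and 1131 in the culture, with H3 at 22.1 and 537. It was thus far higher in the culture in both antibodies, by 4.77 [4.46, 5.08] in RPM for H3K4me3 and by 4.56 for H3. The change of H3K4me3 over H3 was 0.21 [-0.37, 0.80]. At chr3:7912905-7935808 the clock gene TIC went from 321 to 3620 and its H3 from 66.9 to 1875, changes of 3.49 in RPM and -1.30 over H3. The lipoxygenase gene LOX5 beside it went from 62.6 to 507 with H3 from 41.4 to 960. At chr5:26089556-26111351 the homeobox gene HB5 went from 102 to 2276 and its H3 from 19.3 to 648, or 4.47 in RPM and -0.55 over H3. LBD4, a LOB-domain factor at chr1:11213017-11222786, was the 1 gene of the 67 that rose, with H3K4me3 from 14.5 to 528, H3 from 13.8 to 203, and changes of 5.14 in RPM and 1.33 [0.52, 2.14] over H3. For this reason families are described below by the genes called by both measures.

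The families were 57 lists of genes by symbol that left out photosynthesis and the cell cycle, with 2814 genes of which 2438 were measured. Members that the annotation does not name are missed, so a list can hold only a part of its family, and counts refer to the list. Of the 2438 measured genes, 125 rose (5.13%) and 280 fell (11.5%), against 5.69% and 5.33% of the 17904 measured genes in no list of any kind. The median list gene stood at -0.27 in RPM and -0.04 over H3, against -0.14 and 0.11 for all genes. These shares are descriptions of 1 library a side and were not tested. A symbol was carried by 36.3% of risen, 51.3% of fallen and 43.4% of other measured genes. Lists built by symbol thus draw on fallen genes more often than on risen ones, and this was not separated from the family counts. More members had fallen than risen in 35 lists, and more had risen than fallen in 18. The split was 41 and 12 by RPM alone and 29 and 25 over H3 alone.

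**Figure D3:**
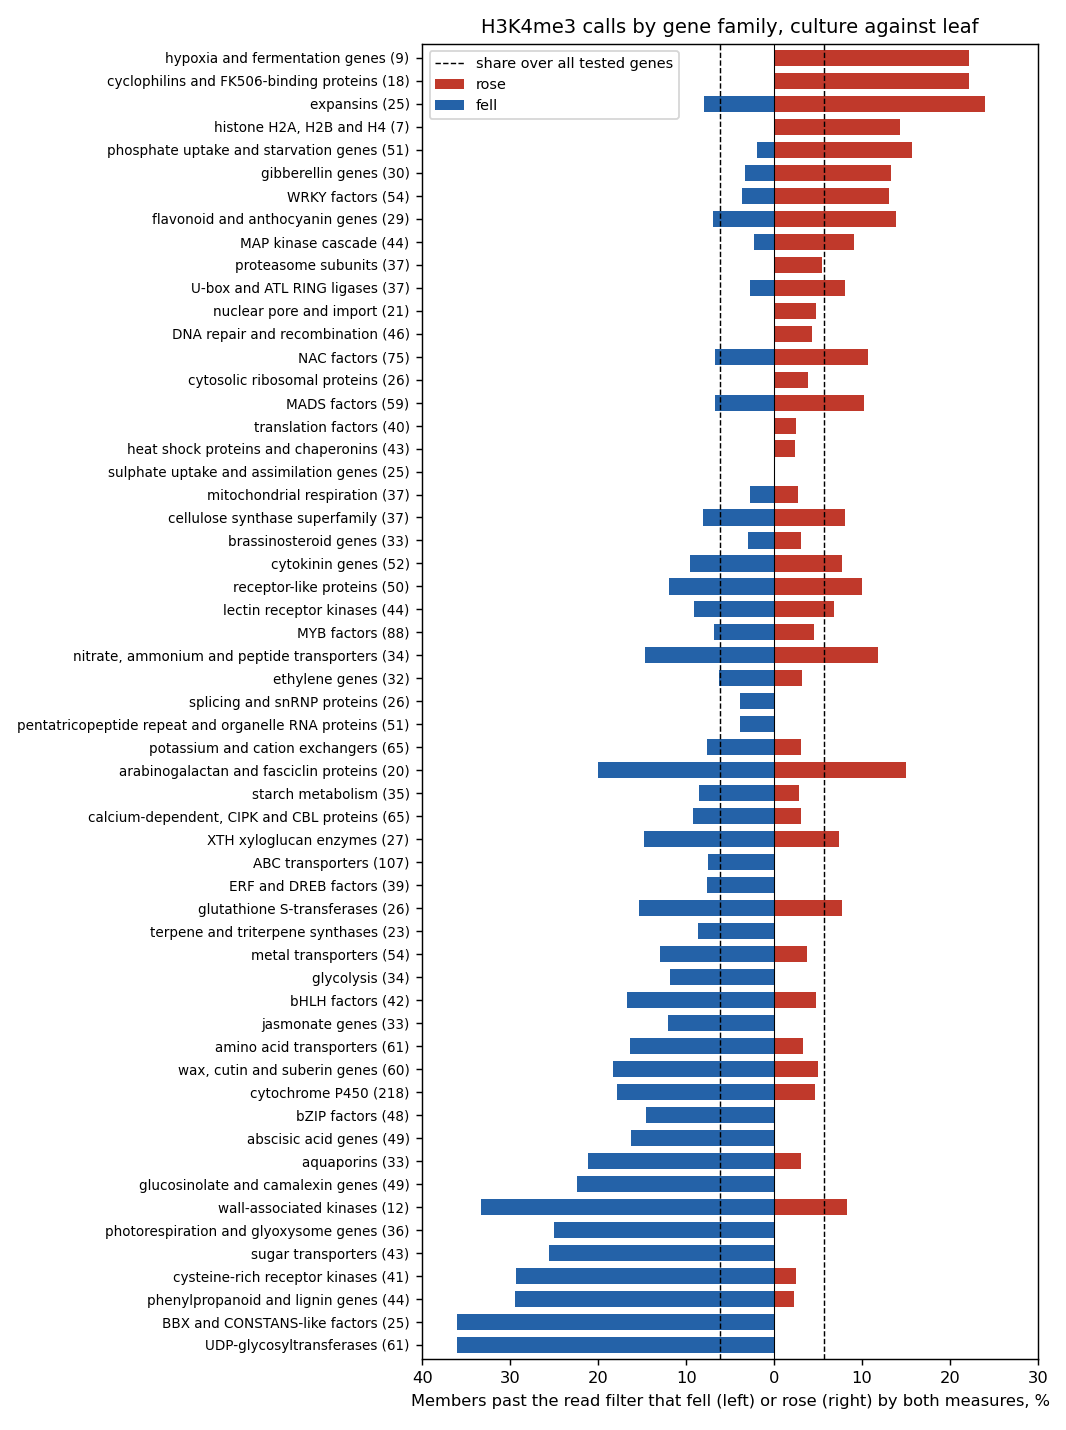
Percentage of the measured members of each of 57 gene families that fell (left, blue) or rose (right, red) by both measures, with the number of measured members in parentheses and the shares over all measured genes as dashed lines (6.11% fell, 5.67% rose). UDP-glycosyltransferases and BBX factors are at the bottom with 36.1% and 36.0% fallen, and expansins reach furthest to the right with 24.0% risen.

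The lists of specialised metabolism ranged widely in the share that fell, beside 6.11% fallen and 5.67% risen over all measured genes. UDP-glycosyltransferases, which join sugars to hormones, flavonoids and other small molecules, had 61 of 62 members measured, and 22 fell (36.1%) and 0 rose. Their medians were -0.91 in RPM and -0.64 over H3, and 44 of the 61 lay below the all-gene median by both measures. UGT74F2, a glucosyltransferase of salicylic acid, had 104 RPM in leaf and 9.20 in the culture, with H3 at 11 and 9.30. The mark was thus low in the culture on a gene whose H3 was alike, with changes of -3.46 [-3.99, -2.93] in RPM and -3.18 [-4.18, -2.17] over H3. UGT84A3, which glucosylates sinapate and other hydroxycinnamates, went from 64.6 to 5.75 with H3 at 19.3 and 15.4. The UGT73 branch fell in 8 of 10 members (medians -2.05 and -1.93), and the UGT74 branch in 3 of 5. In the UGT71 branch 1 of 10 fell, with medians of -0.60 and 0.20. Near-identical neighbours such as the UGT73B and UGT73C genes may share reads, since the handling of reads that map to several places is not given in the sources used here.

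Cytochrome P450 genes, which encode haem-containing monooxygenases of hormone and defence chemistry, had 218 of 233 members measured. Of these 39 fell (17.9%) and 10 rose. With a 3-fold rule 16 fell and 5 rose, by RPM alone 71 fell, and 6 rose with a pseudocount of 5. The CYP71 branch, the largest, had 12 of 46 fallen and 2 risen. In it CYP71B4 went from 43.8 to 4.60 RPM at H3 of 12.4 and 10.6, changes of -3.18 and -2.92. The CYP705 branch held 5 of the 10 risen genes among 23 measured, with 3 fallen and medians of 0.17 and -0.17. CYP705A6 had 2.41 RPM in leaf and 24.4 in the culture at H3 of 12.4 and 15.4, and CYP705A13 had 19.3 and 70.8 at H3 of 14.5 and 11.9. Both were higher in the culture than in leaf, and their changes over H3 were 2.84 [1.42, 4.25] and 2.16 [1.27, 3.06].

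Of 49 measured genes of glucosinolate and camalexin synthesis, the sulphur-containing defence compounds of this plant, 11 fell (22.4%) and 0 rose, with medians of -0.61 and -0.53, and 5 fell under a 3-fold rule. The indole glucosinolate methyltransferases IGMT1 to IGMT4 all fell, on 29 to 38 leaf and 6 to 12 culture reads each. The interval of IGMT4 over H3 ended at -0.08. These genes are neighbours and may share reads, since the handling of reads that map to several places is not given. IGMT2 went from 17.8 to 1.73 RPM while its H3 was 8.28 and 9.95. CYP83A1, of the aliphatic branch, went from 20.7 to 6.33, and ESM1, which steers breakdown toward isothiocyanates, from 24.1 to 3.74 at H3 of 8.97 and 8.02. The paralogues CYP79B2 and CYP79B3 catalyse the same step from tryptophan. CYP79B3 fell, from 34.2 to 10.9, and CYP79B2 was called neither way at 35.2 and 27.3. PAD3, the last enzyme of camalexin synthesis, was also called neither way, at 17.8 and 7.19.

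Phenylpropanoid and lignin genes had 13 of 44 members fallen (29.5%) and 1 risen, with 7 fallen under a 3-fold rule. Laccases, which polymerise monolignols in the wall, made up 6 of the fallen among 14 measured, LAC17 among them with 18.3 and 4.60 RPM. Among enzymes of monolignol synthesis, 4CL1, which activates coumarate, went from 119 to 27.9 with H3 of 26.2 and 19.6, or -2.08 in RPM and -1.65 over H3. Ferulate 5-hydroxylase FAH1 (AT4G36220) went from 76.6 to 20.7 with H3 of 11 and 17.3. PAL1, at the entry of the pathway, was alike on both sides with 75.6 and 82.0 and was called neither way. In the flavonoid branch 4 of 29 rose and 2 fell: the flavonol regulator MYB111 rose from 7.71 to 17.5 but was not called with a pseudocount of 5, and the flavanone 3-hydroxylase gene F3H fell from 42.9 to 14.4. Terpene synthases had 2 of 23 fallen (8.7%) and 0 risen, and neither was called with a pseudocount of 5. Glutathione S-transferases had 4 of 26 fallen (15.4%) and 2 risen (7.69%). The shares over all measured genes were 6.11% fallen and 5.67% risen.

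Wax, cutin and suberin genes had 11 of 60 fallen (18.3%) and 3 risen, with medians of -0.69 and -0.62, and 7 fallen under a 3-fold rule. The ketoacyl-CoA synthases that elongate fatty acids showed both directions, with 7 of 20 fallen and 2 risen. KCS6, which makes the waxes of the shoot cuticle, had 88.6 RPM in leaf and 16.1 in the culture, with H3 of 20.7 and 31.8, and changes of -2.44 [-2.87, -2.01] and -3.03 [-3.75, -2.31]. KCS10, needed for the cuticle of the young epidermis, went from 59.3 to 6.04 at H3 of 21.4 and 14.8. KCS17 was low in leaf and high in the culture, with 6.26 and 38.8 at H3 of 14.5 and 15.7, and KCS4 rose from 38.5 to 83.7.

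**Figure D4:**
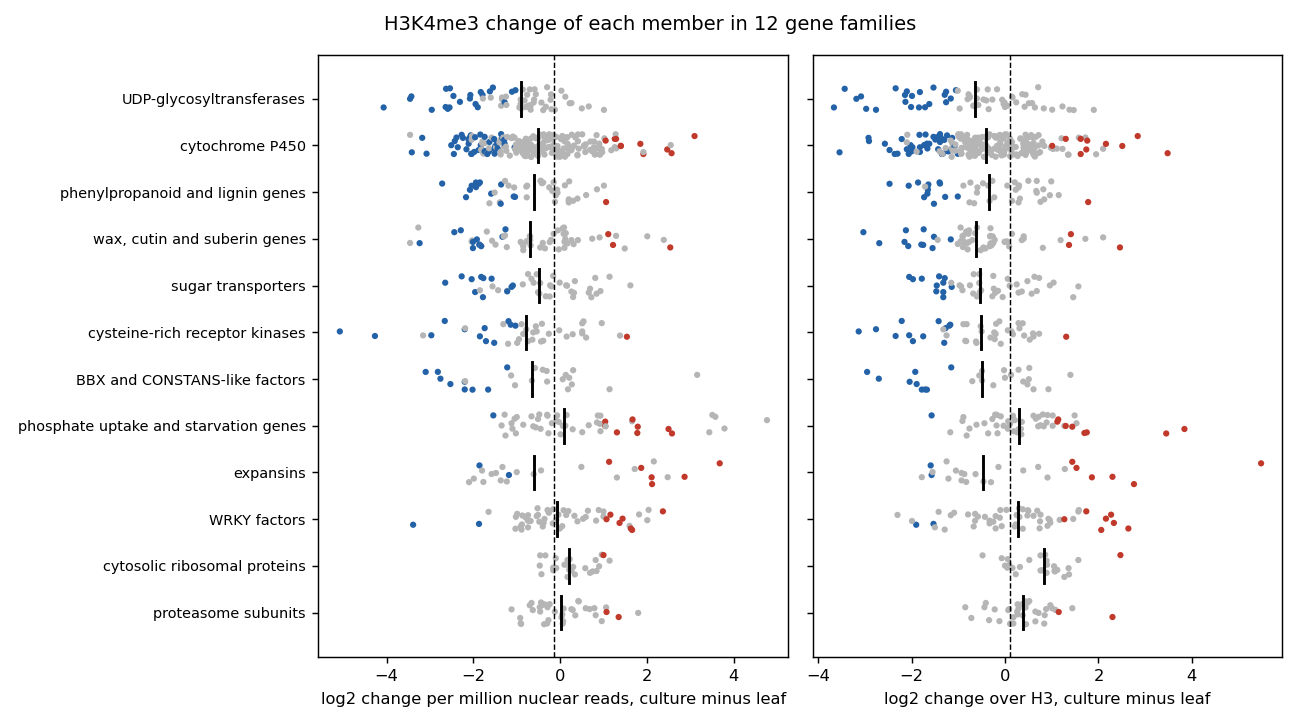
Log2 change of H3K4me3 from leaf to culture for each measured member of 12 families, in RPM on the left and over H3 on the right, with risen genes in red, fallen in blue and others in grey, the family median as a black bar and the all-gene median as a dashed line (-0.14 and 0.11). UDP-glycosyltransferases extend to -4.07 with no red point, and the phosphate genes beyond 3 in RPM are grey because they were not called higher over H3.

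Cell wall genes had calls in both directions, beside shares over all measured genes of 5.67% risen and 6.11% fallen. Expansins, which loosen the wall in growth, had 25 of 36 members measured, and 6 rose (24.0%) and 2 fell, while the medians were -0.61 and -0.46. By RPM alone 10 rose and 11 fell, and over H3 alone 6 rose and 5 fell. Besides EXPA4, the risen members were EXPA13, EXPA15, EXPA20, EXPB3 and EXLA2. EXLA2 had 19.8 RPM in leaf and 148 in the culture at H3 of 9.66 and 15.1, with changes of 2.87 [2.42, 3.33] and 2.30 [1.35, 3.25]. EXPA15 went from 10.6 to 48.0 while H3 was 13.8 and 8.98. Both were higher in the culture than in leaf. EXPA5 and EXPA18 lay in the stretches of high H3 and were called neither way, at 2.48 and 2.16 in RPM but -1.78 and -1.25 over H3. In the cellulose synthase superfamily 3 of 37 rose (8.11%) and 3 fell (8.11%), not far from those shares. In it the mannan synthase gene CSLA02 rose from 19.3 to 107 at H3 of 22.8 and 27. XTH enzymes, which cut and rejoin xyloglucan, had 2 of 27 risen (7.41%) and 4 fallen (14.8%). Arabinogalactan and fasciclin proteins had 3 of 20 risen (15%) and 4 fallen (20%).

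The transporter lists are given by cargo, and differences between them were not tested. Over all measured genes 5.67% rose and 6.11% fell. Of 43 measured sugar transporters 11 fell (25.6%) and 0 rose, with 2 fallen under a 3-fold rule. SUC1, a sucrose carrier, had 101 RPM in leaf and 28.5 in the culture at H3 of 13.8 and 16.7, changes of -1.82 and -2.05, and SUC2, which loads sucrose into the phloem, went from 38.1 to 10.9. Amino acid transporters had 10 of 61 fallen (16.4%) and 2 risen, with 1 fallen under a 3-fold rule. Aquaporins had 7 of 33 fallen (21.2%) and 1 risen, with 2 fallen under a 3-fold rule and 3 with a pseudocount of 5. PIP1A, a water channel of the plasma membrane, went from 74.7 to 23.3. Metal transporters had 7 of 54 fallen (13%) and 2 risen (3.7%), and the phloem iron and copper carrier gene OPT3 went from 98.3 to 21.9. ABC transporters had 8 of 107 fallen (7.48%) and 0 risen. Potassium and cation carriers had 5 of 65 fallen (7.69%) and 2 risen (3.08%). The fallen shares of these last lists were near that of all measured genes.

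The list of nitrate, ammonium and peptide carriers, which also holds nitrate reductase genes, had 4 of 34 risen (11.8%) and 5 fallen (14.7%). Over all measured genes 5.67% rose and 6.11% fell. The nitrate carrier gene NRT2.6 had 21.2 RPM in leaf and 177 in the culture, at H3 of 20.7 and 25.7, a change of 3.03 [2.59, 3.47] in RPM and 2.75 [2.01, 3.49] over H3. The ammonium carrier gene AMT1;2 went the other way, from 88.6 to 10.1 at H3 of 19.3 and 15.4, or -3.11 and -2.76. The nitrate reductase gene NIA1 fell from 111 to 51.2 and was not called after centring on the median gene. Under a 3-fold rule 1 carrier rose and 1 fell.

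Phosphate genes had more risen than fallen members, beside shares over all measured genes of 5.67% risen and 6.11% fallen. Of 51 measured, 8 rose (15.7%) and 1 fell, with medians of 0.09 and 0.29, and 3 rose under a 3-fold rule. The risen genes were the transporters PHT1;4 and PHT1;7, the transporter trafficking factor PHF1, the acid phosphatases PAP14, PAP17, PAP19 and PAP25, and PS2. PAP17, induced by phosphate starvation, had 28.9 RPM in leaf and 101 in the culture at H3 of 6.90 and 7.70. That H3 rests on 10 leaf and 24 culture reads, with a change of 0.08 [-0.94, 1.10]. Over H3 the mark changed by 1.70 [0.60, 2.80]. PHT1;4 had 39.5 and 82.0 at H3 of 20 and 17, or 1.04 and 1.30. By contrast PHT1;1, PHT1;2, PHT1;3 and PHT1;6 on chromosome 5 had RPM changes of 4.77, 3.51, 3.58 and 3.44 and over-H3 changes of 0.21, -0.17, 0.72 and -1.17, and none was called by both measures. By RPM alone the phosphate list counted 15 risen and 8 fallen. Of 25 measured sulphate genes 0 rose and 0 fell, with SERAT2;2, a serine acetyltransferase, at 96.8 and 97.5 and the ATP sulphurylase gene APS1 at 106 and 75.9.

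Among cell-surface receptors, the cysteine-rich and wall-associated kinases had more fallen than risen members. The shares over all measured genes were 6.11% fallen and 5.67% risen. Cysteine-rich receptor kinases, a tandemly arranged defence family, had 12 of 41 members fallen (29.3%) and 1 risen, with medians of -0.78 and -0.52, and 7 fallen under a 3-fold rule. CRK40 had 77.6 RPM in leaf and 2.01 in the culture, with H3 also lower at 24.2 and 6.10, so its change of -5.08 in RPM was -3.13 [-4.42, -1.84] over H3. CRK22 went from 40.5 to 8.63 with H3 of 15.2 and 23.1, and CRK23 rose from 13.5 to 40.3. Of 12 wall-associated kinases, which bind pectin, 4 fell and 1 rose, and 0 fell under a 3-fold rule. WAK1 went from 38.5 to 7.77 and WAK2 from 51.1 to 13.8. Lectin receptor kinases (3 of 44 risen or 6.82%, 4 fallen or 9.09%) and receptor-like proteins (5 of 50 risen or 10%, 6 fallen or 12%) had calls both ways. Among the latter CLV2, which acts with receptor kinases in the shoot meristem, rose from 20.2 to 51.8.

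Inside the cell, kinase modules and ubiquitin ligases had small counts both ways, beside shares over all measured genes of 5.67% risen and 6.11% fallen. In the MAP kinase cascade 4 of 44 rose (9.09%) and 1 fell (2.27%), with 2 risen under a pseudocount of 5. MEKK1, at the head of a defence cascade, had 53.5 RPM in leaf and 291 in the culture at H3 of 26.9 and 37.9, changes of 2.43 [2.15, 2.72] and 1.97 [1.38, 2.55]. Calcium-dependent and CIPK kinases had 6 of 65 fallen (9.23%) and 2 risen (3.08%). CIPK20 went from 29.4 to 4.89 and CIPK25 from 16.4 to 74.8. U-box and ATL ligases had 3 of 37 risen (8.11%) and 1 fallen (2.7%). PUB22, a negative regulator of immunity, went from 19.8 to 120 at H3 of 8.97 and 12.8.

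Among transcription factors the BBX and CONSTANS-like family, zinc-finger proteins of light and day-length responses, had 9 of 25 members fallen (36.0%) and 0 risen. The shares over all measured genes were 6.11% fallen and 5.67% risen. COL2 had 120 RPM in leaf and 13.8 in the culture at H3 of 21.4 and 19.6, changes of -3.10 [-3.54, -2.66] and -2.95 [-3.71, -2.19]. BBX14 went from 167 to 24.4 while H3 was 24.2 and 23.4. Both were high in leaf over an H3 that was alike. CO, the family's founder in flowering, carried little mark on either side, with 8.67 and 10.1. The bZIP factors had 7 of 48 fallen (14.6%) and 0 risen, with BZIP61 from 80.5 to 10.1 at H3 of 14.5 and 14.1. The bHLH factors had 7 of 42 fallen (16.7%) and 2 risen. PIF7, of shade responses, went from 58.3 to 8.05, and SCRM2, of the stomatal lineage, from 46.7 to 5.18.

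WRKY factors had more risen than fallen members, and NAC factors had calls both ways. Over all measured genes 5.67% rose and 6.11% fell. Of 54 WRKY genes, many of them regulators of defence, 7 rose (13%) and 2 fell, with 3 risen under a 3-fold rule. WRKY23, an auxin-responsive factor of root development, went from 18.3 to 48.3 while its H3 was lower in the culture, at 18.6 and 9.63. WRKY38, a defence regulator, went from 6.26 to 34.5 at H3 of 10.4 and 16.7. Of 75 NAC genes 8 rose (10.7%) and 5 fell, with medians of -0.15 in both measures. Their balance depended on the setting, with 10 risen and 16 fallen by RPM alone, 2 and 3 under a 3-fold rule, and 5 and 5 with a pseudocount of 5. ATAF1, a stress factor, had 143 RPM in leaf and 27.3 in the culture at H3 of 10.4 and 6.74, and the leaf senescence regulator NAP went from 20.7 to 3.16. ANAC087 was low in leaf, with 7.23, and reached 33.1 in the culture at H3 of 7.59 and 7.70. MADS factors had 6 of 59 risen and 4 fallen, with AGL86 at 3.85 and 36.0. MYB factors had 4 of 88 risen (4.55%) and 6 fallen (6.82%), near the shares over all measured genes. ERF and DREB factors had 0 of 39 risen and 3 fallen (7.69%), with 26 of 65 members unmeasured. Their fallen count was 10 without the read filter and 13 by RPM alone.

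Hormone genes outside auxin showed mostly small counts, beside shares over all measured genes of 5.67% risen and 6.11% fallen. Abscisic acid genes had 8 of 49 fallen (16.3%) and 0 risen, and 3 fell under a 3-fold rule. ABA1, the zeaxanthin epoxidase of its synthesis, went from 80.5 to 24.2 at H3 of 15.2 and 15.1, the receptor gene PYL3 from 19.3 to 3.45, and the response gene RAB18 (AT5G66400) from 12.5 to 2.88. Jasmonate genes had 4 of 33 fallen and 0 risen. LOX2, the chloroplast lipoxygenase of jasmonate synthesis, went from 83.3 to 28.2 at H3 of 30.4 and 52.0, and the repressor gene JAZ1 from 13.5 to 4.31. Cytokinin genes had 4 of 52 risen (7.69%) and 5 fallen (9.62%). LOG3, which releases active cytokinin, had 2.41 in leaf and 21.9 in the culture at H3 of 7.59 and 5.78, and the response regulator RR5 went from 5.30 to 37.7. In the gibberellin list 4 of 30 rose (13.3%) and 1 fell (3.33%), and 1 rose under a 3-fold rule or a pseudocount of 5. The risen genes were GA20OX5, of its synthesis, and GA2OX4, GA2OX7 and GA2OX8, which inactivate gibberellins, and GA3OX2, of the last step to the active hormone, fell from 18.3 to 4.31. Ethylene genes (1 of 32 risen, 2 fallen) and brassinosteroid genes (1 of 33 risen, 1 fallen) gave few calls.

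Among the lists of central metabolism, photorespiration had the most fallen members, beside shares over all measured genes of 6.11% fallen and 5.67% risen. Of 36 genes of photorespiration and the glyoxysome 9 fell (25%) and 0 rose, with medians of -0.60 and -0.58. PMDH2, the peroxisomal malate dehydrogenase, went from 54.4 to 6.90 at H3 of 9.66 and 11.6. AGT, the serine to glyoxylate aminotransferase, went from 90.1 to 19.6, and the hydroxypyruvate reductase gene HPR from 63.1 to 14.7. GGT1 (AT1G23310), GOX1, GOX2, CAT2, SHM1 and the malate synthase gene MLS also fell. In glycolysis 4 of 34 fell and 0 rose, with medians of -0.10 and 0.39, and all 4 encode fructose-bisphosphate aldolases, of which FBA5 went from 61.2 to 10.4 at H3 of 22.1 and 23.4. Starch genes had 3 of 35 fallen and 1 risen, with medians of -0.09 and -0.01, and CT-BMY, the chloroplast beta-amylase that degrades starch at night, went from 104 to 10.6, or -3.26 and -2.94. Of 9 fermentation genes 2 rose. The alcohol dehydrogenase gene ADH1 had 2.41 RPM in leaf and 14.7 in the culture at H3 of 13.8 and 10.9, changes of 2.37 [1.15, 3.59] and 2.74 [1.29, 4.19].

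Genes of the basic machinery of the cell had few calls, beside shares over all measured genes of 5.67% risen and 6.11% fallen. Cytosolic ribosomal proteins had 1 of 26 risen and 0 fallen, with medians of 0.21 in RPM and 0.83 over H3, above the all-gene values. RPS15 was the risen one, at 16.9 and 34.5 RPM with H3 of 17.9 and 6.42, and it was not called with a pseudocount of 5. Proteasome subunits had 2 of 37 risen and 0 fallen, translation factors 1 of 40 risen and 0 fallen, and heat shock proteins and chaperonins 1 of 43 risen and 0 fallen. DNA repair genes had 2 of 46 risen and 0 fallen, among them PARP2, a sensor of DNA breaks, from 14 to 42.0. Nuclear pore and import genes had 1 of 21 risen and 0 fallen, and histones H2A, H2B and H4 1 of 7 risen and 0 fallen. Splicing factors had 1 of 26 fallen and 0 risen, pentatricopeptide and organelle RNA proteins 2 of 51 fallen and 0 risen, and mitochondrial respiration 1 of 37 risen and 1 fallen. In the last list the alternative oxidase gene AOX1C went from 1.45 to 10.1 and the alternative NADH dehydrogenase gene NDA1 from 38.1 to 9.20. Cyclophilins and FK506-binding proteins, which fold proteins by turning proline bonds, stood apart with 4 of 18 risen (22.2%) and 0 fallen, and medians of 0.32 and 0.77. ROC1 went from 36.1 to 80.5 and ROF1 from 21.7 to 62.4, but 0 of the 4 reached 3-fold by both measures and ROC1 was not called after centring. The risen members FKBP15-1 and ROF1 are neighbours on chromosome 3. They lie between AT3G25210 and AT3G25240, which also rose and are not in the list. In the window there, from 9000001 to 9500000, 18 of 95 measured genes rose and 1 fell. The share of the list was thus not independent of its place on the chromosome, and the 2 were not separated.

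Other genes with a symbol among the 15 largest changes in each direction, ranked by the interval end nearer to 0, are given here. Among rises, PIS2, of phosphatidylinositol synthesis, went from 3.85 to 36.2 at H3 of 15.9 and 17. TRN2, a tetraspanin of leaf and root patterning, went from 3.85 to 34.5 at H3 of 7.59 and 7.70, and TMO6, a Dof factor of vascular tissue, from 15.4 to 68.2 at H3 of 8.28 and 5.45. All 3 were lower in leaf than in the culture. MYB37, which promotes axillary meristems, went from 7.71 to 41.7, the heat acclimation gene HSA32 from 0.964 to 14.7, TPR12 from 15.4 to 77.1, and the kinase gene ATMPK13 from 1.93 to 17.8. Among falls, the phototropism gene RPT2 (AT2G30520) went from 106 to 9.49 at H3 of 15.9 and 11.9, and the germin-like gene GER1 (AT1G72610) from 46.7 to 5.46 at H3 of 6.90 and 9.95.

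Called genes also lay next to each other. The next measured gene on the chromosome rose in 9.30% of cases after a risen gene (108 genes) and in 5.58% after a gene called neither way, and it fell in 9.52% of cases after a fallen gene (119 genes) and in 6.01% after a gene called neither way. Of the 227 neighbouring pairs with the same call, 29 overlapped or lay within 200 bp, where reads at one gene can count for the other, and ChIP reads carry no strand. There were 26 runs of at least 3 neighbouring measured genes with the same call, 15 risen and 11 fallen, with 87 genes.

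The longest run, at chr4:820336-843459, held 9 risen genes and no unmeasured one. In it AT4G01935 and NFU1 overlap and AT4G01897 lies within 200 bp of GLB1, so these genes can share reads, also in the sums. Summed over the run, H3K4me3 went from 107 to 623 RPM and H3 from 119 to 233. Both were thus higher in the culture, and the mark more so. Its members changed by 1.44 to 2.98 in RPM and 1.06 to 2.38 over H3. GLB1 (AT4G01900), a homologue of the bacterial nitrogen sensor P-II, went from 6.26 to 52.9, and NFU1, of chloroplast iron-sulphur assembly, from 12.5 to 95.8, and the 7 genes between and beside them have no symbol. The run of IGMT1, IGMT3, IGMT2 and IGMT4 at chr1:7386839-7400605 fell from 67.4 to 9.78, with H3 at 41.4 and 32.7. The median log2 of H3K27me3 over H3 in that run was 1.64 in leaf and -0.41 in the culture, so both marks were lower there. Over all protein-coding genes the median of H3K27me3 over H3 was also lower in the culture, at -0.68 in leaf and -1.30 in the culture. A run of 4 risen genes at chr3:9180348-9193385, with FKBP15-1 and ROF1 in it, went from 82.9 to 410 at H3 of 73.8 and 86.6. Fallen runs included UGT73B3, UGT73B2 and UGT73B1 at chr4:16343057-16349982 (137 to 37.4, H3 of 44.2 and 62.6) and UGT73C1, UGT73C2 and AT2G36770 at chr2:15410462-15416766 (115 to 19.3, H3 of 37.3 and 27.6).

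**Figure D5:**
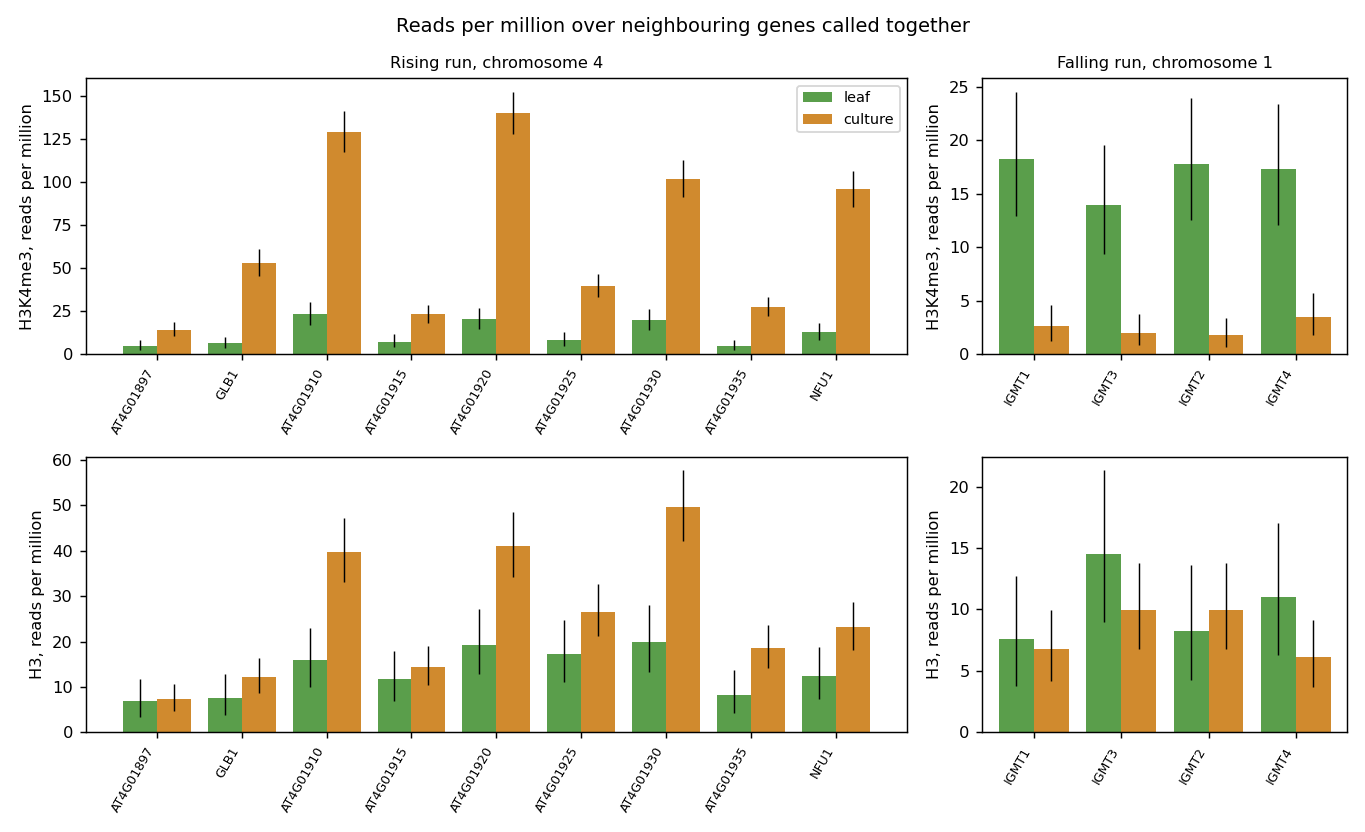
RPM of H3K4me3 and H3 in leaf and culture for the genes of the 9-gene run on chromosome 4 and the 4-gene IGMT run on chromosome 1, with bars of the 95% counting interval. On chromosome 4 every gene has more H3K4me3 in the culture (summed, 107 and 623), and on chromosome 1 every gene has less (67.4 and 9.78).

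Risen and fallen genes were also described by length and by the other antibodies. Both were shorter than genes called neither way, with median lengths of 1922 and 1938.5 bp against 2352.5. The median H3 changes were -0.20, -0.16 and -0.30 for risen, fallen and other genes, which the call partly fixes, since it asks for both measures. H3K27me3 over H3 was at least 2-fold at 22.9% of risen and 32.2% of fallen genes in leaf, against 16.0% of others. In the culture these shares were 6.12%, 22.1% and 9.79%. The share of risen genes with that much H3K27me3 was thus above that of others in leaf and below it in the culture. H3K27me3 and the H3K4me3 change over H3 share the H3 libraries, so the medians in RPM per kb are given too: 4.59, 6.29 and 3.96 in leaf and 2.51, 3.39 and 2.30 in the culture. H3K9me2 over H3 was low in all classes, with medians of -2.85, -2.57 and -2.95 in leaf and -2.27, -2.31 and -2.37 in the culture. In 5 equal classes of H3K4me3 level, from the lowest, 4.62%, 4.25%, 5.69%, 6.52% and 7.28% of genes rose and 5.76%, 7.23%, 6.89%, 4.84% and 5.81% fell.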

How the data were processed

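ChIP-seq libraries of Arabidopsis leaf and suspension culture were used, H3K4me3 and H3 for the comparison and H3K27me3 and H3K9me2 as other readouts. The authors deposited raw counts, whole reads for each of 109972 TAIR10 intervals. The submitters' processing notes name Bowtie2, bedtools and TAIR10, without versions. The sources used here do not give aligner settings or how duplicates and multi-mapping reads were handled. Symbols came from the RefSeq annotation, used for names alone: 26726 of 27213 gene IDs matched and 10383 had a symbol. Promoter and protein sequences were not analysed here.

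Counts were scaled to reads per 1000000 on chromosomes 1 to 5 (RPM) with a pseudocount of 1. Genes needed at least 20 H3K4me3 reads over both libraries and 10 reads in each H3 library. Intervals are at the 95% level from Poisson counting error by the delta method. Calls needed 2-fold in both measures, RPM and over H3. The code was tested on simulated data. For each list up to 4 risen and 4 fallen genes nearest the extremes were eligible to be named, or the 3 with most reads where none was called, plus 15 genes with a symbol each way over all. PAL1, CO, CYP79B2, PAD3 and the genes of the stretches of high H3 were picked outside that rule, after their values were seen, as were members named beside a full list of calls. The members and lists were chosen with earlier results of these data known. Python 3.11.15, pandas 2.3.3, numpy 2.4.6, scipy 1.17.1 and matplotlib 3.10.9 were used. Alternatives were a pseudocount of 5, no filter, centring on the median gene, a 3-fold rule, scaling to protein-coding reads, either measure alone, and leaving out genes within 200 bp of another.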

Additional observations from a re-analysis of the deposited data

How the results depend on the processing

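No paired analysis was possible because each antibody and sample type had 1 library and the labels give no replicate numbers, and for the same reason no library could be left out. With a 3-fold rule, 884 genes rose and 1121 fell in RPM, 1125 rose and 744 fell over H3, and 441 rose and 508 fell by both, with 49 risen and 125 fallen family members. Of the 26 runs of neighbouring genes at the 2-fold rule, 4 held at least 4 genes. By RPM alone 2114 rose and 3041 fell, with 242 and 542 family members. Over H3 alone 2606 rose and 1751 fell, with 261 and 361 family members. Calls by both measures stayed within 1.5 times under a pseudocount of 5 (928 risen, 1015 fallen), no filter (1416 and 1644), centring (1234 and 1286), scaling to protein-coding reads (1173 and 1246) and without genes that overlap or lie within 200 bp of another (779 and 891 of 12882 measured). None of these settings turned a call of the 2411 genes called by both measures. That was fixed in advance for either measure alone, the 3-fold rule, no filter and the leaving out of close genes. Of 276 called genes that could be named, 263 stayed called after centring, 244 with a pseudocount of 5 and 155 under the 3-fold rule. All 276 stayed called under the other scaling and without the filter, whose removal cannot drop a call. Of the 114 counts of risen or fallen members of the 57 families, 76 moved by over 1.5 times by RPM alone, 71 under the 3-fold rule, 56 over H3 alone, 21 with a pseudocount of 5, 10 after centring and 7 without the filter. Depth limits the calls: 5713 of the unmeasured genes had under 10 H3 reads in leaf.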
